A study of Mus musculus with 17 samples.

Results

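The amino acid response and serine-folate genes described here are 33 named mouse genes: 10 regulators of the ATF4 type, 15 enzymes and 8 transporters of amino acids. All 33 had a value among the 20227 genes measured. Each value is the mean log2 signal of the probe sets of an exon array that carried that gene's symbol alone and whose mean over the 17 arrays lay above the median of all probe sets, 4.599. Differences below are differences of log2 signal ± the fit's standard error (SE).

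The cells were 32D, a mouse line resembling myeloblasts that depends on interleukin-3 (IL-3). The 9 arrays written here as ITD lines 1 to 9 each came from cells given a different human FLT3 receptor with an internal tandem duplication and grown without IL-3. FLT3 is a tyrosine kinase receptor on blood progenitors, and such duplications activate it. The controls had 2 arrays each: human wild-type FLT3 (WT) with FLT3 ligand at 20 ng/mL, WT with IL-3 at 1 ng/mL, the empty pLXRN vector with IL-3, and untransduced parental cells with IL-3. The protocol does not state outright that the cultures with ligand also had IL-3, and their label may mean cells that carry a ligand construct, so the growth protocol was followed. All cells grew in RPMI medium with 10% serum. The transduced lines were retroviral populations of many clones. ITD lines were selected by growth without IL-3, and vector and WT lines with G418 and IL-3. By their titles, paired control arrays were biological replicates, but it is not clear from the labels whether these were separate lines. The spread within control pairs may thus be technical. In the fit of all arrays, p-values of group differences rest on 1 spread shared by all groups. The ITD lines give 8 of its 12 degrees of freedom and the control pairs 4. Such p-values, also those between control groups, thus depend largely on differences among ITD lines. ITD lines and the controls grown with IL-3 differ in IL-3 as well as in the receptor, which cannot be told apart. Whether ITD lines and the cultures with ligand differ in IL-3 is not known. Parental and vector cells are called receptor-free below, and their 2 group means were averaged with equal weight.

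Cells short of an amino acid, or under other stresses, phosphorylate the translation factor eIF2, which slows most protein synthesis but favours translation of the transcription factor ATF4. ATF4 pairs with C/EBP proteins on response elements in genes for amino acid synthesis and uptake. Serine made from a glycolytic intermediate by Phgdh, Psat1 and Psph passes a carbon unit to folate through Shmt1 and Shmt2, and the Mthfd enzymes carry it towards purines and thymidylate. ATF4 is regulated largely at translation, and these arrays measured RNA only.

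The response element joins a C/EBP and an ATF half-site and was searched as TGATGNAA on both strands, from 250 bases before to 50 bases after each start in RefSeq promoters of build GRCm38.p6. It was present for 8 of the 29 members with a promoter in the table (27.6%), against 4.51% of all 27025 genes with a promoter, or 3.97% of the 32851 promoters, since some genes have more than 1. The sequences are printed because these letters are the site known for ATF4, and the element is in capitals. An element on the other strand appears as its reverse complement. Positions count from the gene start, with the base before it as -1. For Asns and Slc7a11 the 250 bases before the start are given, and Slc7a11 holds the element at -66 and again, on the other strand, at -47.
Asns (-23), chr6:7693210-7693459, minus strand: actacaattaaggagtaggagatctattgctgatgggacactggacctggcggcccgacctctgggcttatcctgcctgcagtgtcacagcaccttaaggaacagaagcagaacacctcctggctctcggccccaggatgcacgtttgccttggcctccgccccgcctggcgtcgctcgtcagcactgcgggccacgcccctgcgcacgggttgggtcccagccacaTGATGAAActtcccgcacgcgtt
Slc7a11, chr3:50443614-50443863, minus strand: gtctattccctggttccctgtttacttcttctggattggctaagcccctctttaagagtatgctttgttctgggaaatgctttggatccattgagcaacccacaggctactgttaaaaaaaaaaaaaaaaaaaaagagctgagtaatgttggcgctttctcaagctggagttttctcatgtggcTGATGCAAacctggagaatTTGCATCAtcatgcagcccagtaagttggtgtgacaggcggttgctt
Pycr1 (-103), chr11:120643833-120643862, minus strand: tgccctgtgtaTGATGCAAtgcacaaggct
Nupr1 (-110), chr7:126625562-126625591, minus strand: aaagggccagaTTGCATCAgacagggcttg
Atf3 (-110), chr1:191183425-191183454, minus strand: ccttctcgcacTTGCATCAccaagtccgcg
Chac1 (-193), chr2:119351038-119351067, plus strand: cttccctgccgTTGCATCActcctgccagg
Slc1a4 (-4), chr11:20332699-20332728, minus strand: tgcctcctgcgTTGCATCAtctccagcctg
Trib3 (15), chr2:152344028-152344057, minus strand: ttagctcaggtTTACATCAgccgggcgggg
A match is a description of letters and not a measured binding site. The E-box CACGTG, read by other factors such as MYC, was present for 3 of the 29 members (10.3%; Aldh18a1, Cbs and Nupr1), against 8.09% of all genes with a promoter, and overlapped none of the response elements. The promoter table used here holds no entry for Cth, Eif4ebp1, Slc1a5 and Slc7a5.

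Most members were higher in cells with a receptor, whether mutant or wild type, than in receptor-free cells, and parental cells were lowest. Against receptor-free cells, 26 of 33 members rose in the ITD lines and 1, Psph, fell (limma, adjusted p under 0.05 by Benjamini-Hochberg, taken over all genes). Of all genes 13.7% rose and 8.72% fell. The median difference was 0.68 over the 33 members, against -0.0018 over all genes. In WT cells 25 members rose and 0 fell against receptor-free cells, where 9.45% of all genes rose and 5.13% fell, with medians of 0.81 over the members and 0.04 over all genes. No member fell in WT by this test at the adjusted threshold, and 29 had an unadjusted p under 0.05 in either direction, as did 25.9% of all genes. Both comparisons share the 4 receptor-free arrays. In bulk RNA, fewer cells of a type and less RNA per cell cannot be told apart. In 22 of 33 members every ITD array lay above every receptor-free array, which held for 6.72% of all genes. The group means stood in 1 order in 28 of 33 members, with all 3 receptor groups above vector and vector above parental, an order found in 12.1% of all genes. In 31 of 33 members the parental mean was the lowest of the 5, against 27% of all genes.

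**Figure D1:**
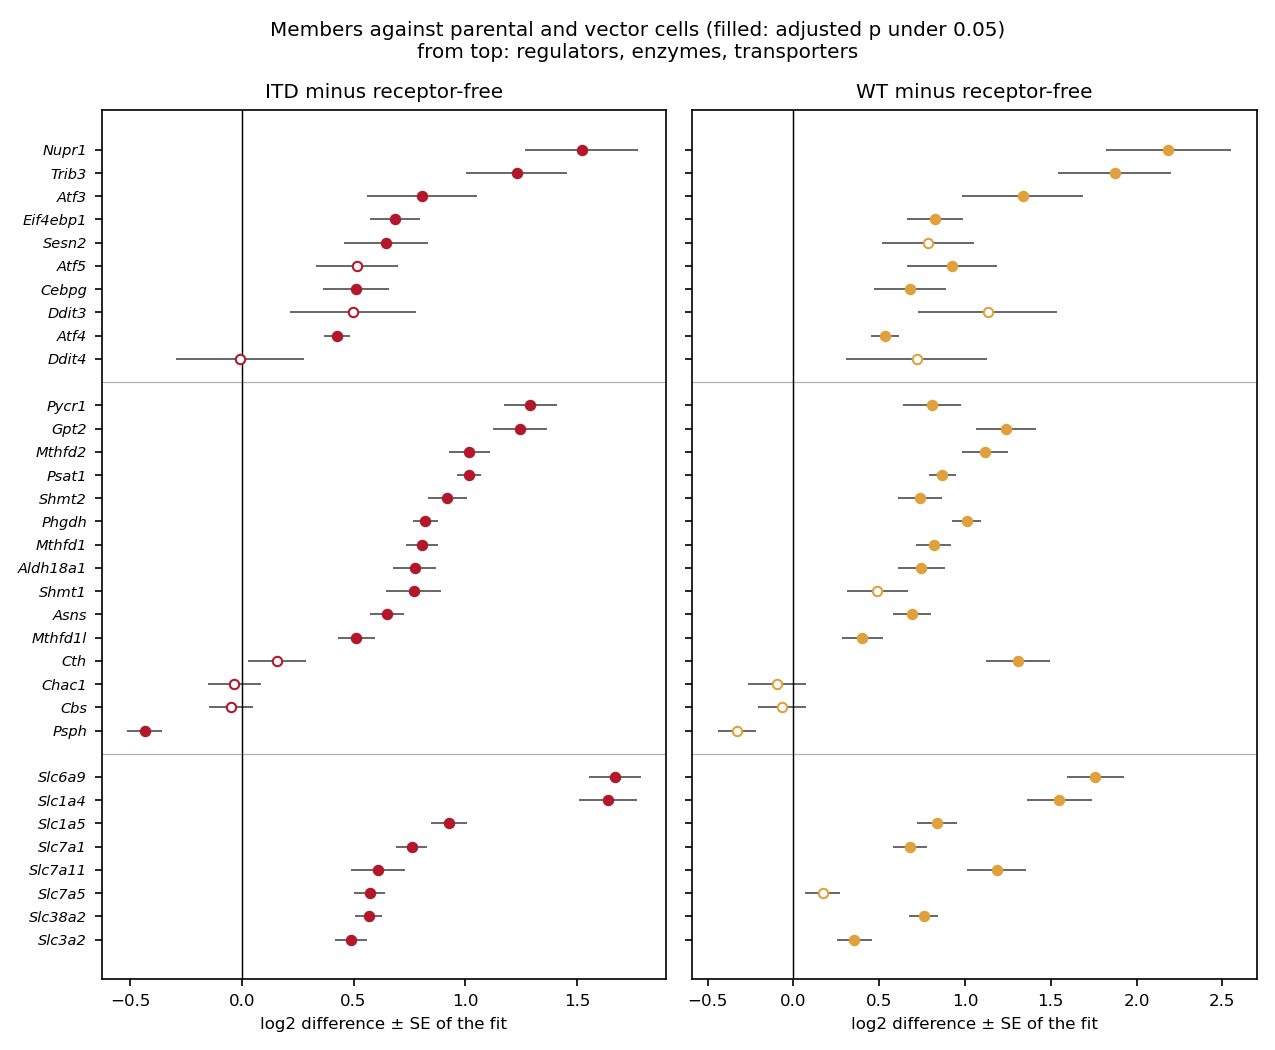
Log2 difference ± SE of the fit for each of the 33 members, in ITD lines (left) and in WT cells (right), against receptor-free cells, with regulators at the top, enzymes in the middle and transporters at the bottom. Filled points passed an adjusted p of 0.05. Of these, 26 lie right of 0 and 1, Psph, lies left of 0 for ITD, and 25 lie right of 0 for WT.

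The comparison was repeated against the vector line alone. With the parental arrays left out, 19 members were higher in ITD lines than in vector cells and 0 lower, where 8.16% of all genes were higher and 4.89% lower. These 19 were 11 of 15 enzymes, 7 of 8 transporters and 1 of 10 regulators, Eif4ebp1. In WT cells 18 members were higher than in vector cells, 9 enzymes, 6 transporters and 3 regulators (Trib3, Nupr1 and Eif4ebp1), where 5.07% of all genes were higher and 2.42% lower. That fit has fewer arrays. The median ITD difference from vector cells was 0.418 for the regulators (-0.25 to 0.829), 0.592 for the enzymes (-0.298 to 0.814) and 0.508 for the transporters (0.24 to 1.27). Some regulators that were not called, such as Trib3 at 0.829 and Nupr1 at 0.827, thus differed by more than called enzymes such as Phgdh at 0.483 and Asns at 0.443. The spread over ITD lines was wider in the regulators, and a difference between the roles was not tested.

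Among the regulators, 7 of 10 rose in ITD lines and 7 of 10 in WT cells against receptor-free cells, where 13.7% and 9.45% of all genes rose. Atf4, the central transcription factor of the response, was at a lowest of 11.11, a median of 11.26 and a highest of 11.41 in ITD lines. It was at 11.41 and 11.40 in WT with ligand, at 11.41 and 11.35 in WT, at 11.13 and 11.09 in vector cells and at 10.55 and 10.61 in parental cells. Only the lowest ITD line lay within the range of the vector arrays, and all lines lay above the parental arrays. The difference was 0.42 ± 0.06 for ITD (adjusted p = 5.44e-05) and 0.53 ± 0.08 for WT (adjusted p = 0.000376). Against vector cells alone it was 0.16 for ITD (adjusted p = 0.187) and 0.27 for WT (adjusted p = 0.115).

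Nupr1, a small stress-induced chromatin protein, showed the largest difference of the regulators. Its values were 8.83 at the lowest, 9.17 at the median and 10.76 at the highest in ITD lines. They were 10.53 and 10.46 in WT with ligand, 9.96 and 10.00 in WT, 8.56 and 8.42 in vector cells and 7.22 and 6.99 in parental cells. No ITD or WT array overlapped the receptor-free arrays, and parental cells lay below vector cells. Nupr1 rose by 1.52 ± 0.25 in ITD lines (adjusted p = 0.000344) and by 2.19 ± 0.37 in WT cells (adjusted p = 0.000678). Against vector cells alone the ITD difference was 0.83 (adjusted p = 0.126), and that of WT was 1.49 (adjusted p = 0.0485).

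Trib3, a pseudokinase that is a target and an inhibitor of ATF4 signalling, was at 9.95, 10.16 and 11.21 in ITD lines (lowest, median and highest). It was at 11.27 and 10.94 in WT with ligand, 11.07 and 11.10 in WT, 9.63 and 9.59 in vector cells and 8.84 and 8.78 in parental cells. All ITD and WT arrays lay above all receptor-free arrays. Trib3 rose by 1.23 ± 0.23 in ITD lines (adjusted p = 0.000824) and by 1.87 ± 0.33 in WT (adjusted p = 0.000965). Against vector cells alone its ITD difference was 0.83 (adjusted p = 0.0888).

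Atf3, a stress-induced factor of the same bZIP family, was at 6.40, 6.77 and 7.75 in ITD lines (lowest, median and highest). It was at 7.10 and 6.83 in WT with ligand, 7.49 and 7.45 in WT, 6.54 and 6.38 in vector cells and 5.94 and 5.68 in parental cells. ITD lines overlapped vector cells, while WT arrays did not overlap receptor-free arrays. The Atf3 signal was low, with a mean over the 17 arrays of 6.82, near the 6.80 of the fibroblast marker Col1a1. All 7 probe sets were higher in ITD lines than in receptor-free cells, by 0.215 to 2.085. Atf3 rose by 0.81 ± 0.25 in ITD lines (adjusted p = 0.0247) and by 1.34 ± 0.35 in WT (adjusted p = 0.0165). The ITD call was lost without any 1 of the 4 receptor-free arrays (adjusted p up to 0.107), and the WT call without either WT array (adjusted p up to 0.126).

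Atf5, another bZIP factor of the stress response, was at 7.92, 9.02 and 9.27 in ITD lines (lowest, median and highest). It was at 8.84 and 8.85 in WT with ligand, 9.33 and 9.27 in WT, 8.39 and 8.56 in vector cells and 8.25 and 8.29 in parental cells. ITD line 9 lay below every other array of the series, and the other 8 lines lay above all receptor-free arrays. The ITD difference of 0.51 ± 0.18 did not pass (adjusted p = 0.0522), but it passed without line 9, where it was 0.64, or without line 5 (adjusted p 0.000299 at the lowest). In WT cells Atf5 rose by 0.93 ± 0.26 (adjusted p = 0.0237), a call lost without either parental array, vector replicate 1 or either WT array (adjusted p up to 0.169).

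Of the other regulators, Eif4ebp1, which restrains translation initiation, rose by 0.68 ± 0.11 in ITD lines and 0.83 ± 0.16 in WT. Sesn2, a sensor that lowers mTORC1 activity, rose by 0.65 ± 0.19 in ITD lines and differed by 0.79 ± 0.27 in WT (adjusted p = 0.0619). Cebpg, the C/EBP partner of ATF4, rose by 0.51 ± 0.15 in ITD lines and 0.68 ± 0.21 in WT. The Sesn2 call for ITD was lost without any 1 receptor-free array (adjusted p up to 0.0699), and that for WT was gained without ITD line 4 (adjusted p 0.00613 at the lowest). The Cebpg calls were lost without either parental array or vector replicate 1 for ITD (adjusted p up to 0.0817), and without any 1 receptor-free or WT array for WT (adjusted p up to 0.239). Ddit3, which encodes CHOP, did not pass with a difference of 0.50 ± 0.28 for ITD (adjusted p = 0.237) and 1.13 ± 0.41 for WT (adjusted p = 0.0756, and as low as 0.0375 without ITD line 4). Ddit4, an inhibitor of mTORC1, differed by -0.01 ± 0.29 for ITD (adjusted p = 0.989) and by 0.72 ± 0.41 for WT (adjusted p = 0.307).

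**Figure D2:**
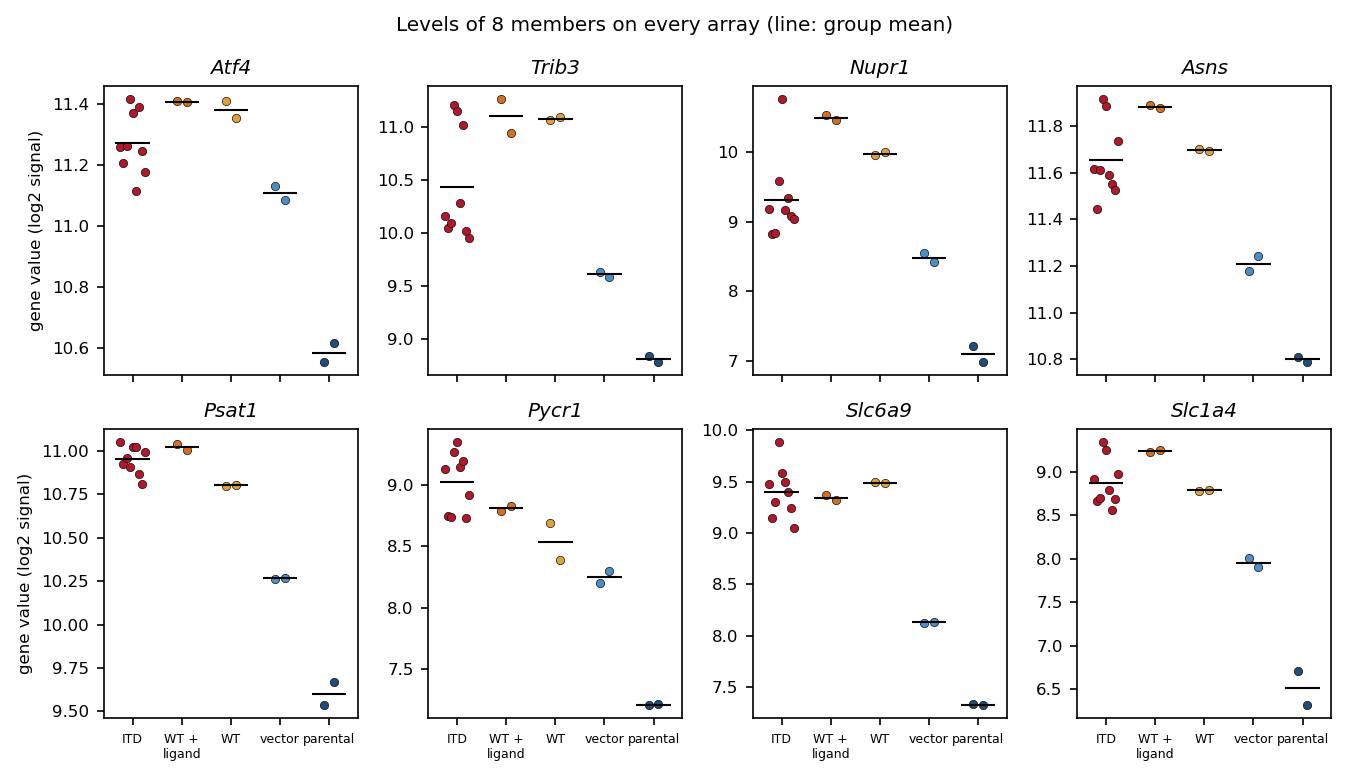
Gene value in log2 signal on each of the 17 arrays for 8 members, with a line at each group mean, from ITD on the left through WT with ligand, WT and vector to parental on the right. Parental arrays are lowest in all 8 panels, and the ITD arrays of Trib3 fall into a higher 3 and a lower 6.

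Among the enzymes, 11 of 15 rose in ITD lines, 11 rose in WT cells, and Psph fell in ITD lines. Of all genes 13.7% rose and 8.72% fell in ITD lines, and 9.45% rose in WT cells. The first step of serine synthesis, Phgdh, was at 11.66, 11.84 and 11.91 in ITD lines (lowest, median and highest). It was at 12.03 and 12.02 in WT with ligand, 11.97 and 11.99 in WT, 11.32 and 11.30 in vector cells and 10.54 and 10.72 in parental cells. Receptor-free arrays lay below all others. Phgdh rose by 0.82 ± 0.06 in ITD lines (adjusted p = 9.69e-08) and 1.01 ± 0.08 in WT cells (adjusted p = 2.04e-06).

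Psat1, the aminotransferase of the second step, was at 10.81, 10.96 and 11.05 in ITD lines (lowest, median and highest). It was at 11.04 and 11.01 in WT with ligand, 10.80 and 10.81 in WT, 10.26 and 10.27 in vector cells and 9.54 and 9.67 in parental cells. No ITD array lay within the receptor-free range. Psat1 had the smallest SD over the ITD lines of all 33 members, 0.08, and rose by 1.02 ± 0.05 in ITD lines (adjusted p = 1.06e-08) and 0.87 ± 0.08 in WT (adjusted p = 4.15e-06).

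Psph, the phosphatase of the third and last step, ran the other way. It was at 7.26, 7.44 and 7.69 in ITD lines (lowest, median and highest). It was at 7.62 and 7.66 in WT with ligand, 7.55 and 7.56 in WT, 7.70 and 7.79 in vector cells and 8.03 and 8.01 in parental cells. Every ITD array lay below every receptor-free array. Psph fell by 0.44 ± 0.08 in ITD lines (adjusted p = 0.000596), and all 10 of its probe sets were lower. Against vector cells alone its ITD difference was -0.30 (adjusted p = 0.0747). In WT it differed by -0.33 ± 0.11 (adjusted p = 0.0603), a call gained without ITD line 5 or line 8 (adjusted p 0.0376 at the lowest).

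Downstream of serine, all 5 folate enzymes among the members rose in ITD lines, and 4 of the 5 rose in WT cells, against 13.7% and 9.45% of all genes. Mthfd2, the mitochondrial methylenetetrahydrofolate dehydrogenase, was at 10.86, 11.11 and 11.48 in ITD lines (lowest, median and highest). It was at 11.44 and 11.45 in WT with ligand, 11.22 and 11.30 in WT, 10.43 and 10.45 in vector cells and 9.83 and 9.86 in parental cells. All ITD and WT arrays lay above all receptor-free arrays. Mthfd2 rose by 1.02 ± 0.09 in ITD lines (adjusted p = 1.25e-06) and 1.12 ± 0.13 in WT (adjusted p = 4.65e-05).

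Its mitochondrial partner Shmt2, which moves the serine carbon to folate, rose by 0.92 ± 0.09 in ITD lines and 0.74 ± 0.13 in WT. Mthfd1l, which releases mitochondrial formate, rose by 0.51 ± 0.08 in ITD lines and 0.40 ± 0.12 in WT, where the call was lost without any 1 WT or receptor-free array (adjusted p up to 0.235). In the cytosol, Mthfd1 rose by 0.81 ± 0.07 in ITD lines and 0.82 ± 0.10 in WT. Shmt1, the cytosolic counterpart of Shmt2, rose by 0.77 ± 0.12 in ITD lines and differed by 0.49 ± 0.18 in WT (adjusted p = 0.0791, and 0.0211 at the lowest, without ITD line 4). For all 4 genes every ITD array lay above every receptor-free array.

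Proline synthesis was represented by Pycr1 and Aldh18a1. Pycr1, which makes proline in the last step, was at 8.73, 9.13 and 9.34 in ITD lines (lowest, median and highest). It was at 8.79 and 8.82 in WT with ligand, 8.69 and 8.38 in WT, 8.20 and 8.30 in vector cells and 7.21 and 7.21 in parental cells. ITD arrays lay above the WT arrays without ligand and above all receptor-free arrays, but ITD lines 2, 3 and 8 lay below both WT arrays with ligand. Parental cells lay far below vector cells. Pycr1 rose by 1.29 ± 0.12 in ITD lines (adjusted p = 1.2e-06) and by 0.81 ± 0.17 in WT (adjusted p = 0.00386), where the call was lost without WT replicate 1 (adjusted p = 0.0996). Aldh18a1, which starts proline synthesis from glutamate, rose by 0.77 ± 0.10 in ITD lines and 0.74 ± 0.14 in WT.

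Gpt2, the mitochondrial alanine aminotransferase, was at 9.22, 9.55 and 9.97 in ITD lines (lowest, median and highest). It was at 9.99 and 10.00 in WT with ligand, 9.63 and 9.47 in WT, 8.78 and 8.71 in vector cells and 7.89 and 7.87 in parental cells. Receptor groups and receptor-free cells did not overlap. Gpt2 rose by 1.25 ± 0.12 in ITD lines (adjusted p = 2.14e-06) and 1.24 ± 0.18 in WT (adjusted p = 0.000166).

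Asns, asparagine synthetase and the best known ATF4 target, was at 11.45, 11.61 and 11.92 in ITD lines (lowest, median and highest). It was at 11.89 and 11.88 in WT with ligand, 11.70 and 11.70 in WT, 11.18 and 11.24 in vector cells and 10.81 and 10.79 in parental cells. Again the receptor-free arrays lay below all others. Asns rose by 0.65 ± 0.08 in ITD lines (adjusted p = 1.36e-05) and 0.69 ± 0.11 in WT (adjusted p = 0.00045).

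Cth, the cystathionine lyase that makes cysteine, rose in WT cells and did not pass in ITD lines. It was at 5.52, 5.9965 and 6.26 in ITD lines (lowest, median and highest). It was at 6.91 and 6.93 in WT with ligand, 7.07 and 7.14 in WT, 5.95 and 6.01 in vector cells and 5.38 and 5.86 in parental cells. The 4 WT arrays, with and without ligand, lay above all 13 others. Cth rose by 1.31 ± 0.19 in WT (adjusted p = 0.000176) and differed by 0.16 ± 0.13 in ITD lines (adjusted p = 0.44). These values rest on 6 of its 14 probe sets, which differed in direction between ITD and receptor-free cells (3 of 6 higher). With probe sets kept only above the 75th percentile of the means, 6.341, the WT difference was -0.14. Cbs, the enzyme before Cth, differed by -0.05 ± 0.10 in ITD lines and -0.07 ± 0.14 in WT. Chac1, which degrades glutathione and is a known ATF4 target with the element printed above, differed by -0.03 ± 0.12 in ITD lines and -0.09 ± 0.17 in WT, and neither gene passed (adjusted p of 0.78 or more). Both signals were low, with means over the 17 arrays of 6.08 for Cbs and 6.61 for Chac1, so a difference could be missed. The T cell marker Cd3e averaged 6.06 and the fibroblast marker Col1a1 6.80.

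All 8 transporters rose in ITD lines and 7 of 8 in WT cells, where 13.7% and 9.45% of all genes rose. Every ITD array lay above every receptor-free array for each of the 8, as for 6.72% of all genes. Slc6a9, the glycine transporter GLYT1, was at 9.05, 9.40 and 9.88 in ITD lines (lowest, median and highest). It was at 9.37 and 9.32 in WT with ligand, 9.49 and 9.48 in WT, 8.13 and 8.13 in vector cells and 7.34 and 7.33 in parental cells. Slc6a9 rose by 1.67 ± 0.12 in ITD lines, a 3.18-fold higher signal and the largest rise of the members (adjusted p = 9.69e-08), and by 1.76 ± 0.17 in WT (adjusted p = 5.08e-06).

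Slc1a4, a carrier of serine, alanine and cysteine, was at 8.56, 8.79 and 9.33 in ITD lines (lowest, median and highest). It was at 9.23 and 9.24 in WT with ligand, 8.77 and 8.79 in WT, 8.01 and 7.90 in vector cells and 6.71 and 6.32 in parental cells. Each group lay apart from the next in that order, save that ITD lines spanned both WT groups. Slc1a4 rose by 1.64 ± 0.13 in ITD lines (adjusted p = 3.17e-07) and 1.55 ± 0.19 in WT (adjusted p = 4.91e-05), and by 0.92 in ITD lines against vector cells alone (adjusted p = 0.00212).

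Slc1a5, the glutamine carrier ASCT2, was at 9.99, 10.32 and 10.54 in ITD lines (lowest, median and highest). It was at 10.25 and 10.23 in WT with ligand, 10.29 and 10.17 in WT, 9.58 and 9.49 in vector cells and 9.24 and 9.24 in parental cells. The receptor-free arrays lay below all others. Slc1a5 rose by 0.93 ± 0.08 in ITD lines (adjusted p = 7.92e-07) and 0.84 ± 0.12 in WT (adjusted p = 0.000144).

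Slc7a11 encodes xCT, the light chain of the cystine-glutamate exchanger, and pairs with the heavy chain Slc3a2. It was at 8.42, 8.63 and 9.13 in ITD lines (lowest, median and highest). It was at 8.71 and 8.71 in WT with ligand, 9.30 and 9.22 in WT, 8.41 and 8.41 in vector cells and 7.93 and 7.56 in parental cells. The lowest ITD line lay just above the vector arrays, and WT without ligand lay above all ITD lines. Slc7a11 rose by 0.61 ± 0.12 in ITD lines (adjusted p = 0.00137) and 1.18 ± 0.17 in WT (adjusted p = 0.000218), and differed by 0.28 between ITD lines and vector cells alone (adjusted p = 0.255).

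Slc7a5, the light chain LAT1 for large neutral amino acids, was at 10.72, 10.96 and 11.09 in ITD lines (lowest, median and highest). It was at 10.68 and 10.67 in WT with ligand, 10.55 and 10.46 in WT, 10.48 and 10.37 in vector cells and 10.22 and 10.29 in parental cells. All 9 ITD lines lay above all 8 other arrays. It rose by 0.57 ± 0.07 in ITD lines (adjusted p = 1.94e-05) and was the transporter not called in WT (0.17 ± 0.10, adjusted p = 0.327). Of the rest, Slc7a1, the cationic amino acid carrier CAT1, rose by 0.76 ± 0.07 in ITD lines and 0.68 ± 0.10 in WT. Slc38a2, the neutral amino acid carrier SNAT2, rose by 0.57 ± 0.06 in ITD lines and 0.76 ± 0.09 in WT. Slc3a2 rose by 0.49 ± 0.07 in ITD lines and 0.35 ± 0.10 in WT, the WT call being lost without any 1 WT or receptor-free array (adjusted p up to 0.238).

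Single probe sets bore the same sign as the gene value in most cases. Of the 484 probe sets behind the members, 450 were higher in ITD lines than in receptor-free cells. All probe sets were higher for 21 of the 33 members, among them Nupr1, Trib3, Asns, Phgdh, Psat1 and Slc1a4. For Sesn2, 19 of 20 were higher, and the odd one stood at -0.63. The 6 probe sets of Atf4 ranged from -0.001 to 0.95. Probe sets of 1 gene share its RNA and are not replicates.

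**Figure D3:**
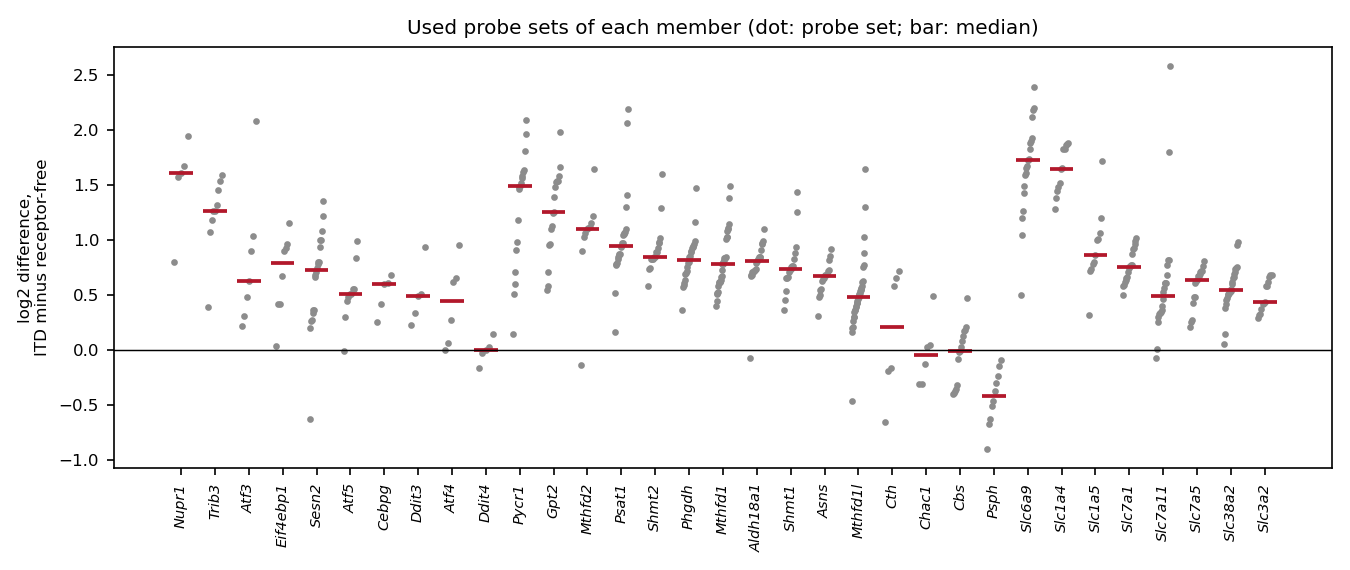
Log2 difference between ITD lines and receptor-free cells for each used probe set (dot) of the 33 members, with the median of a gene as a bar, in the order regulators, enzymes and transporters. Every probe set of Psph lies below 0, and those of Cbs, Chac1, Cth and Ddit4 fall on both sides of 0.

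Between receptor types few members differed. Against WT without ligand, 1 member was higher in ITD lines and 2 were lower, where 3.27% and 4.44% of all genes were called, so the members' shares were near those of all genes. Slc7a5 was higher in ITD lines by 0.40 ± 0.09 (adjusted p = 0.0124), a call lost without either WT array (adjusted p up to 0.222). Cth differed by -1.15 ± 0.17 (adjusted p = 0.000467), with no overlap, and its call was lost with the stricter choice of probe sets. Slc7a11 was lower (-0.57 ± 0.16, adjusted p = 0.033), a call lost without ITD line 2 or 6 or either WT array (adjusted p up to 0.261). For Pycr1 all ITD lines lay above both WT arrays, with a difference of 0.48 ± 0.15 (adjusted p = 0.0645). All 10 regulators had lower means in ITD lines than in WT, from -0.11 for Atf4 to -0.73 for Ddit4. Of all 20227 genes 8700 had higher means in ITD lines, as did 14 of the 33 members. None of the regulators passed the limma test, and 1 had an unadjusted p under 0.05, which 21.9% of all genes had in either direction.

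Against WT with ligand, 0 members were higher in ITD lines and 2 were lower, where 1.72% and 4.08% of all genes were called, and 10 members and 19.2% of all genes had an unadjusted p under 0.05. Nupr1 differed by -1.18 ± 0.33 (adjusted p = 0.0452), with ITD line 5 above the ligand arrays. That call was lost without any 1 of 14 arrays, all 8 controls and ITD lines 1, 2, 3, 6, 8 and 9 (adjusted p up to 0.308). Cth differed by -0.97 ± 0.17 (adjusted p = 0.00221), lost without either ligand array (adjusted p up to 0.0669), and by 0.06 with the stricter choice of probe sets.

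It is not stated outright whether the cultures with ligand also had IL-3, so ligand and a loss of IL-3 cannot be told apart here. With ligand added to WT cells no member passed in the limma fit of all 17 arrays, where 0% of all genes passed, and 5 members and 7.69% of all genes had an unadjusted p under 0.05. The ITD lines give 8 of the 12 degrees of freedom of that fit's spread. In a fit on the 8 control arrays alone, 4 members were higher with ligand, namely Nupr1, Shmt2, Mthfd1l and Gpt2, and 2 were lower, Atf5 and Slc7a11, where 4.21% of all genes were higher and 1.47% lower. Gpt2 differed there by 0.44 ± 0.07 (adjusted p = 0.011) and Atf5 by -0.45 ± 0.08 (adjusted p = 0.012). The values that follow are from the fit of all arrays. Wide intervals remained, as for Ddit3 at 0.07 with a 95% interval of -0.93 to 1.06. Slc7a11 had the largest difference, -0.55 ± 0.20 (95% interval -0.97 to -0.13, adjusted p = 0.532), and Nupr1 differed by 0.52 ± 0.42 (95% interval -0.38 to 1.41). For Atf4 the interval of -0.18 to 0.23 was narrower, but it still held a difference as large as the 0.16 between ITD lines and vector cells.

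The receptor-free lines differed from each other. In vector cells 9 members were higher than in parental cells and 0 lower, where 1.27% of all genes were higher and 0.959% lower, and 16 members and 14.5% of all genes had an unadjusted p under 0.05. The 9 called were Atf4 of the regulators, the enzymes Psat1, Phgdh, Pycr1 and Gpt2, and the transporters Slc7a1, Slc38a2, Slc6a9 and Slc1a4. Slc1a4 was highest among them at 1.44 ± 0.22 (adjusted p = 0.00146), and Atf4 stood at 0.52 ± 0.10 (adjusted p = 0.00689). The calls of Atf4 and Pycr1 were lost without any 1 of the 4 arrays compared (adjusted p up to 0.0903 and 0.0945). Those of Gpt2, Slc6a9 and Slc7a1 were lost without those 4 and some of the arrays that only set the spread, 6, 9 and 14 arrays in all (adjusted p up to 0.213, 0.209 and 0.356). These arrays also formed the baseline of the comparisons with receptor-free cells, and vector cells were transduced and selected with G418 whereas parental cells were not, which cannot be told apart from line differences.

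Set against the mean of the WT, vector and parental groups grown with IL-3, 22 members were higher in ITD lines and Psph was lower, where 11.2% of all genes were higher and 8.15% lower. Slc1a4 rose most, by 1.12 ± 0.11 (adjusted p = 5.35e-06), and Psph fell by 0.33 ± 0.07 (adjusted p = 0.00296). With each cell line taken as 1 unit, 9 ITD lines against 3 control lines, 4 members were called higher and 0 lower, where 1.02% of all genes were higher and 1.29% lower. Without the parental line 13 were higher and 1 lower, where 6.63% and 5.61% of all genes were. There Slc1a4 differed by 0.504, less than Pycr1 at 0.627. The 1 lower was not Psph, which was at -0.203 and not called (limma, adjusted p = 0.114). The called regulators Atf4, Trib3, Nupr1 and Eif4ebp1 all lost their calls there (0.026 to 0.22). In the fit of all arrays Trib3, higher by 0.60 ± 0.20, lost its call (adjusted p = 0.043) without any 1 of 12 arrays (adjusted p up to 0.0971).

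The spread over the 9 ITD lines was widest in the regulators. The median SD over the lines was 0.478 for the 10 regulators, 0.182 for the 15 enzymes and 0.15 for the 8 transporters, against 0.199 over all genes. These SDs take no account of the spread within control pairs, which also differed between members. That spread ran from 0.0327 (Atf4) to 0.2077 (Ddit4) in regulators and from 0.0251 (Asns) to 0.2436 (Chac1) in enzymes. In transporters it ran from 0.0179 (Slc6a9) to 0.144 (Slc1a4). Of 33 members 5 varied more among ITD lines than within control pairs (one-sided F ratio, adjusted p under 0.05). These were the regulator Sesn2, the enzymes Shmt1, Mthfd2 and Aldh18a1, and the transporter Slc6a9. Of all genes 2.55% passed. In all, 21 members and 24.3% of all genes had an unadjusted p under 0.05. Leaving out any 1 control array brought the count to 0, and it ranged from 0 to 8 over all arrays left out.

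ITD lines 4, 5 and 7 stood highest in 8 of 10 regulators, namely Atf3, Atf4, Cebpg, Ddit3, Ddit4, Trib3, Sesn2 and Nupr1, and also in Pycr1 and Slc7a11. These lines were singled out after their values were seen, and the same 3 were the highest in 30.3% of members and 4.42% of all genes. For Ddit3 they were at 10.79, 10.59 and 10.57, against 9.07 to 9.74 in the other 6 lines. For Trib3 they were at 11.21, 11.16 and 11.03, against 9.95 to 10.29. For Ddit4 they were at 11.59, 11.20 and 11.56, against 9.96 to 10.41. In each of these genes the 3 lines lay apart from the other 6. Of the 15 enzymes only Pycr1 showed this, and in Shmt1 lines 4, 7 and 5 were the lowest, at 8.94, 9.15 and 9.32, against 9.44 to 9.73 in the others. Cell type marker means followed these 3 lines only in part. The mean of the 6 early myeloid markers was 8.956, 9.096 and 9.097 in lines 4, 5 and 7, against 9.137 to 9.349 in the other 6 lines. The mean of the 9 mature neutrophil markers was 7.234, 7.516 and 8.021 in lines 4, 5 and 7, against 8.009 to 8.544 in the other 6. Lines 4, 5 and 7 were thus the lowest for early myeloid markers, and lines 4 and 5 the lowest for neutrophil markers. The mean of the mast cell and basophil markers was 9.35, 9.007 and 9.252 in lines 4, 5 and 7. It was 9.268 in line 1 and up to 10.129 in the others, so line 4 lay above line 1. The part of the markers in the regulators' values was not tested. Each mutant had 1 array, so no line was tested.

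**Figure D4:**
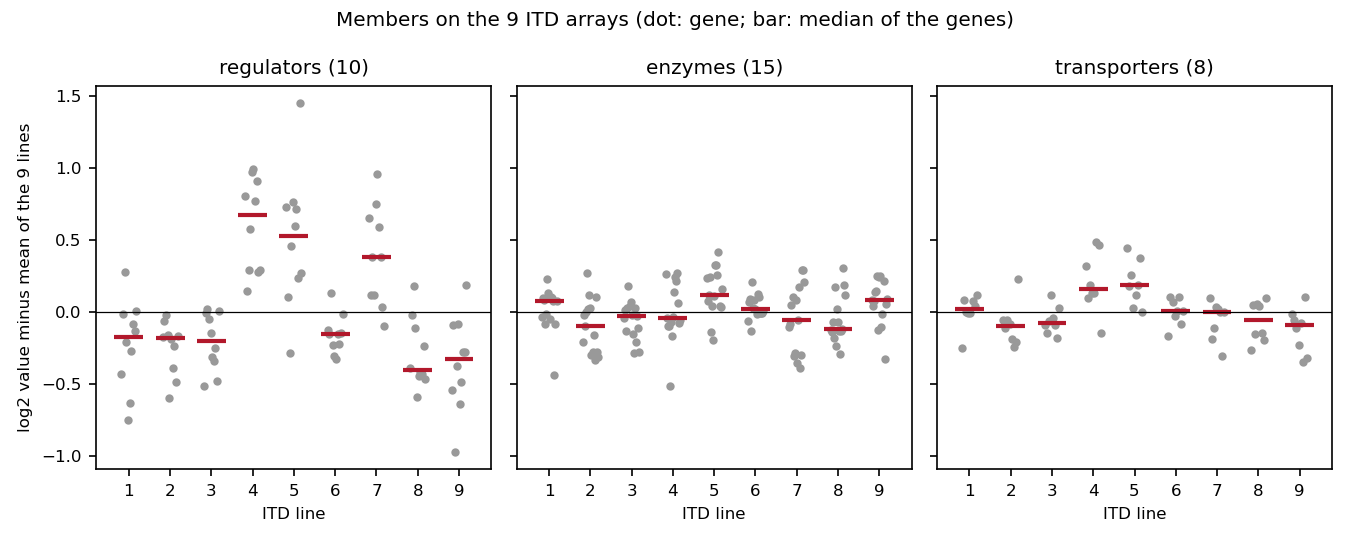
Log2 value minus the mean of the 9 ITD lines for each member (dot), by line, with the median of the genes as a bar, in panels for regulators, enzymes and transporters. The regulators of lines 4, 5 and 7 lie mostly above 0, while the medians of the enzymes stay near 0 in all lines.

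Between partners 6 pairs were compared across the 9 ITD lines with exact permutation tests, two-sided and adjusted over the pairs. Slc7a5 and its heavy chain Slc3a2 correlated at r = 0.724 (p = 0.0281, adjusted p = 0.0561) with rho = 0.767 (p = 0.0214), and at r = 0.725 without the 2 lines farthest from the median. Slc7a11 and Slc3a2 correlated at r = 0.731 (p = 0.0273, adjusted p = 0.0561) with rho = 0.45 (p = 0.23), but at -0.282 without lines 5 and 4, on which the relation rests. For Phgdh with Psat1 r was 0.59 (exact adjusted p = 0.144), for Atf4 with Asns 0.519 (exact adjusted p = 0.184) and for Shmt2 with Mthfd2 0.31 (exact adjusted p = 0.416). Ddit3 with Trib3 was the 1 pair of the 6 that passed over all 9 lines (exact adjusted p = 0.039), but the lines fell into separate clusters, so no r over all lines is given. The permutation test of rho over the same lines did not pass (exact adjusted p = 0.194). Without lines 4 and 5 the exact p of r was 0.0881. Within the 6 lines of the lower cluster r was -0.172 (exact p = 0.751) and rho -0.371 (exact p = 0.497).

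Related genes from other lists moved less uniformly. Of 10 genes of the eIF2 kinases and phosphatase, 4 rose and 1 fell in ITD lines against receptor-free cells. The eIF2 subunit Eif2s1 rose by 0.57 ± 0.07 (adjusted p = 1.95e-05) and Eif2b5 by 0.55 ± 0.06 (adjusted p = 4.12e-06). The amino acid sensing kinase Eif2ak4, or GCN2, differed by 0.14 ± 0.09 (adjusted p = 0.259). Of 12 other genes known to follow ATF4 or CHOP, 2 rose and 2 fell, among them Cdkn1a by 0.52 ± 0.18 and Jdp2 by -0.39 ± 0.10, and their median difference was -0.08.

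In the folate cycle and its purine and thymidylate branches, 12 of 21 genes rose and 1 fell, with a median of 0.32. The folate carrier Slc19a1 rose by 1.08 ± 0.13 (adjusted p = 1.54e-05), with ITD lines at 8.28 to 9.02 against 7.25 to 8.15 in receptor-free cells. Gart, a trifunctional enzyme of purine synthesis, rose by 0.85 ± 0.10 (adjusted p = 1.9e-05). Of 13 other amino acid enzymes 4 rose and 1 fell, with Srm of spermidine synthesis at 0.89 ± 0.12 and Got1, the cytosolic aspartate aminotransferase, at 0.78 ± 0.19. Of 14 other amino acid transporters 3 rose and 1 fell, with Slc7a7 at 0.60 ± 0.11 and Slc38a1 at 0.43 ± 0.06, and a median of -0.07. All these genes are read against 13.7% of all genes higher and 8.72% lower.

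Cell type markers differed between the same groups. The mean log2 signal of 7 mast cell and basophil markers was 9.007 to 10.129 in ITD lines, 7.49 to 7.58 in WT with ligand, 7.582 to 7.728 in WT, 9.327 to 9.34 in vector cells and 11.059 to 11.206 in parental cells. That of 9 mature neutrophil markers was 7.234 to 8.544 in ITD lines, 8.545 to 8.637 in WT with ligand, 8.777 to 8.925 in WT, 9.222 to 9.255 in vector cells and 9.168 to 9.241 in parental cells. Of the neutrophil markers 6 fell and 1 rose in ITD lines against receptor-free cells, and of 6 early myeloid markers 5 fell, Mpo by 1.06 ± 0.20 and Spi1 by 0.95 ± 0.08. Of all genes 8.72% fell and 13.7% rose in that comparison. Early myeloid markers averaged 8.956 to 9.349 in ITD lines, 9.282 to 9.29 in WT with ligand, 9.273 to 9.284 in WT, 9.656 to 9.686 in vector cells and 9.935 to 9.948 in parental cells. T and B cell markers stayed at 5.067 to 5.968 and fibroblast and epithelium markers at 5.6 to 6.124 over all arrays, near the low end of the scale. The part of these marker differences in the members' results was not tested.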

How the data were processed

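RNA of 17 cultures of 32D cells was hybridised to Mouse Exon 1.0 ST arrays of Affymetrix. The authors deposited 1 log2 signal for each probe set. Per the submitters' processing notes, the tools were RMA and Expression Console 1.1. Build and probe set filter are not given in the sources used here.

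Of 1256831 probe sets, 325444 had a symbol in the platform annotation, of which 6684 named more than 1 gene and were not used. Those without a symbol (931387) were not analysed here. Older symbols were replaced by way of RefSeq synonyms (18006 of 22296 current, 4227 changed, 63 kept). A gene's value was the mean of its probe sets with a mean above 4.599 over the 17 arrays, giving 237584 probe sets and 20227 genes with a median of 9 probe sets. Array medians lay between 4.63 and 4.69, no 2 arrays correlated above 0.9692 over probe sets, and precision is limited by how many arrays there were. Some genes of the related lists are not reported here.

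Group means were fitted on all arrays with limma 3.58.1 in R 4.3.3 (lmFit, eBayes with trend; 12 residual and 4.49 prior degrees of freedom), in 7 two-sided contrasts adjusted by Benjamini-Hochberg over all genes. All groups share 1 spread, to which the ITD lines give 8 of the 12 degrees of freedom. Variation among ITD lines was tested by a one-sided F ratio (8 and 4 degrees of freedom). The fits were tested on simulated data. Replicate numbers did not pair the control arrays: deviations of same-numbered arrays correlated between -0.118 and 0.092.

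The 33 members, the related lists, the markers and the tests were chosen with earlier results of these data known. Values on each array are given for Atf4, Asns, Phgdh, Psat1, Mthfd2, Slc7a11 and Pycr1, for up to 4 members a role with the largest called difference from receptor-free cells, and for the called member with the largest rise or fall in the other contrasts. From the related lists up to 2 called genes with the largest difference are named; Eif2ak4, Mpo and Spi1 are named in addition. Alternatives were the choice and averaging of probe sets, repeated quantile normalization, leaving out arrays or a receptor-free line, lines as units, and a replicate block.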

Additional observations from a re-analysis of the deposited data

Results flagged for a closer look

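Arrays far from the rest of their group were looked for in the 9 ITD lines of each of the 33 members, and 2 members had one by Dixon's criterion, where chance gives about 1 in 20. Atf5 was lowest in ITD line 9 at 7.915 (log2 signal), with the nearest line at 8.603, a gap of 0.508 of the range of the lines. Nupr1 was highest in ITD line 5 at 10.762, with the nearest line at 9.591, a gap of 0.605 of the range. The control groups have 2 arrays each and were not examined in this way.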

How the results depend on the processing

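The differences counted here were those of all members in ITD and in WT minus receptor-free cells. In the other contrasts only members called in the main fit were counted, so calls gained there are not in these numbers. The differences were recomputed under 1 changed choice at a time. Of these, 2243 of 2448 kept their side of the threshold, 179 lost the call and 24 gained one. A further 2 that had been called turned in direction. Both were Cth with probe sets above 6.341 only, at -0.143 for WT minus receptor-free cells and 0.0576 for ITD minus WT with ligand. Differences that were not called could change sign and still count as kept. Cth in ITD minus receptor-free cells, for example, was 0.16 in the main fit and -0.0235 without the parental line. The causes of the changes below were not tested, except that leaving out arrays leaves fewer for the fit.

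Among counts of members called, ITD minus receptor-free gave 23 to 27 higher and 1 lower without 1 array, and 0 lower without the parental line. WT minus receptor-free gave 19 to 28 higher and 0 to 1 lower without 1 array, and 1 lower after quantile normalization or without the vector line. For ITD minus WT, 0 to 2 were higher and 1 to 3 lower without 1 array. There, 2 were higher after quantile normalization and with the stricter filter, and 1 was lower with probe set medians and the stricter filter. For ITD minus WT with ligand, 0 were higher and 0 to 3 lower without 1 array, and 1 was lower without a filter, with the stricter filter, with medians and after quantile normalization. Vector minus parental gave 4 to 10 higher and 0 lower without 1 array. Ligand added to WT gave 0 higher and 0 lower without 1 array. For ITD minus the IL-3 controls, 20 to 23 were higher and 1 to 2 lower without 1 array. There, 13 were higher without the parental line, 4 higher and 0 lower with lines as units, and 2 lower without a filter or with medians. Members called for variation numbered 0 to 8 without 1 array, 3 without a filter, 11 with the stricter filter and 0 with medians. The share of all genes called was not counted without 1 array or the vector line, or under changed filters, medians or quantile normalization. Member counts under those settings thus cannot tell a shift of the members from a shift of all genes. Pairs called numbered 0 to 2 without 1 line, 2 without a filter and 3 with medians, against 1, Ddit3 with Trib3.

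In a fit on the 8 control arrays alone, without the ITD spread, vector minus parental gave 20 higher (6.2% of all genes), ligand 4 higher (4.21%) and 2 lower (1.47%), and WT minus receptor-free 30 higher (17.9%) and 1 lower (10%). With the replicate number as a block these were 20 (5.47%), 4 (3.22%) and 2 (1.05%), and 29 (17.3%) and 1 (9.61%). With the ligand numbers crossed, ligand gave 7 higher (5.74%) and 2 lower (2.02%). This alternative was chosen after seeing the data. Over all genes, deviations from the group mean of same-numbered WT arrays with and without ligand correlated at -0.115. The numbers do not pair the arrays by design.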
